A study of Mus musculus with 8 samples.

Results

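The genes described here were Vcam1, Icam1, Selp, Pecam1, Cdh5, Stab1, Stab2, Lyve1, Clec4g and Vwf, the molecules by which leukocytes hold on to vessel walls and the surface proteins that mark the endothelium of liver sinusoids. They were taken by NCBI gene identifier and all 10 were found among the 45777 genes of the table. RNA of mouse liver and colon had been sequenced from animals of a non-alcoholic steatohepatitis (NASH) model, from animals that received extracellular vesicles (EVs) of bovine colostrum at low or high dose, and from control animals. Each group gave 1 liver and 1 colon library, 8 in all. The EV groups were taken as NASH animals from the study's design text. Dose amounts, strain, sex, age, diet, time of treatment and pooling of animals are not stated in the sources used here.

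With 1 library per group no test was possible, no value carries an error, and each comparison describes 2 libraries. Values are FPKM (fragments per kilobase of transcript scaled to the mapped fragments of the library), a scale that allows levels of different genes to be set side by side, and the sequencing depth was unknown. Log2 ratios were taken on FPKM + 1, which makes ratios of weakly expressed genes smaller than they are, and are given relative to the median gene of the comparison. That step mattered in liver, where the shift of the median gene was 0.55 for NASH over control, -0.14 for the low EV dose over NASH and -0.13 for the high dose over NASH. The colon shifts ran from -0.06 to 0.08. Genes were kept in a tissue at 1 FPKM or more in at least 1 of its 4 libraries, and a difference of 2-fold is used only as a mark of size. In liver 9 of the 10 genes were kept, all but Selp. In colon 7 were kept, all but Selp, Stab2 and Clec4g.

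Leukocytes leave the blood in steps. Selectins such as P-selectin (Selp) slow them, and integrins on the leukocyte then bind VCAM-1 (Vcam1) and ICAM-1 (Icam1) on the vessel wall, both of which are induced by inflammatory cytokines through NF-kB. Liver sinusoids are lined by a thin, perforated endothelium that clears waste from blood through scavenger receptors, among them stabilin-1 (Stab1) and stabilin-2 (Stab2). Its surface also carries LYVE-1 (Lyve1) and the lectin LSECtin (Clec4g). This endothelium normally holds little von Willebrand factor (Vwf), the adhesive glycoprotein stored in the endothelium of larger vessels.

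Marker genes were those of the labelled tissues. Alb ran from 15525 to 19466 FPKM in liver and was at 5.18 FPKM or less in colon. Epcam was between 591 and 784 FPKM in colon and at 1.61 FPKM or less in liver. The pan-endothelial genes Pecam1 and Cdh5 reached at least 1.99 FPKM in each of the 8 libraries.

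The 10 genes fell into liver-restricted, colon-richer and shared members. Clec4g ran from 28.8 to 40.8 FPKM in liver and from 0 to 0.0456 FPKM in colon. Stab2, which takes up hyaluronan from blood, lay between 13.7 and 21.6 FPKM in liver and between 0.164 and 0.202 FPKM in colon. The endothelial junction gene Cdh5 also lay higher in each liver library (4.73 to 9.65 FPKM) than in any colon library (1.99 to 3.10 FPKM). Pecam1, a junction protein shared with platelets and leukocytes, lay between 4.25 and 8.96 FPKM in liver and between 9.76 and 10.7 FPKM in colon. Vwf lay between 0.603 and 1.92 FPKM in liver and between 2.45 and 3.64 FPKM in colon. Thus 3 of 10 members were above colon in each liver library and 2 were above liver in each colon library. Of 16284 genes at 1 FPKM or more in any library, 12.6% lay above colon in each liver library and 54.8% lay above liver in each colon library. The other 5 members overlapped between the tissues. This split depended on scaling. After median-of-ratios scaling over the 8 libraries, 6 members lay above colon in each liver library and 0 above liver in each colon library, where the shares of all genes were 27.6% and 32.6%. Member counts before and after scaling cover all 10 genes. The shares leave out Selp, which did not reach 1 FPKM in any library.

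**Figure D1:**
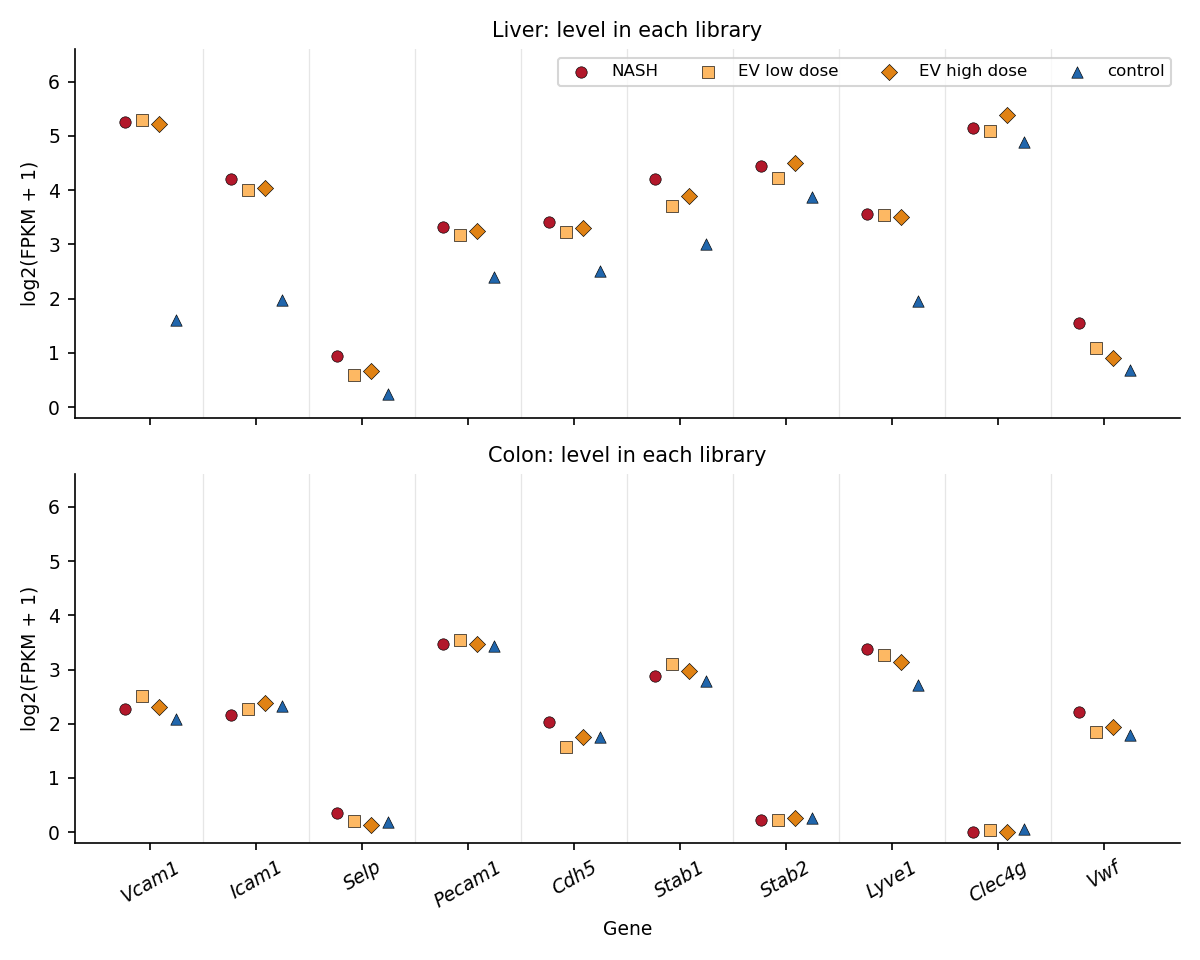
Level of each gene as log2(FPKM + 1) in liver (top) and colon (bottom), 1 point per library, with NASH, EV low dose, EV high dose and control from left to right. In liver Vcam1, Icam1 and Lyve1 show the control library far below the other 3, while Clec4g and Stab2 are high in all 4 liver libraries and near 0 in colon.

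Vcam1 showed the widest difference of the 9 genes kept in liver. It was at 37.1 FPKM in the NASH liver, 38.5 at the low EV dose and 36.3 at the high EV dose, against 2.05 FPKM in the control liver (gene ID 22329, chr3:116110020-116129688). It was the most abundant of the 10 in the NASH liver and only the 8th in the control liver. The FPKM ratio of NASH to control was 18.1, and the log2 ratio relative to the median gene was 3.09, rank 29 from the highest among 12866 liver genes. The control liver stood alone, far below the 3 livers of the NASH model, which were close to each other. Against NASH, its log2 ratio was 0.19 at the low EV dose, where the 5th and 95th percentiles of liver genes lay at -0.43 and 0.43, and 0.10 at the high EV dose, where they lay at -0.55 and 0.54.

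Icam1, the ligand of the leukocyte integrins LFA-1 and Mac-1, was likewise lowest in the control liver, with a smaller difference than Vcam1. It was at 17.4 FPKM in the NASH liver, 14.9 at the low EV dose and 15.4 at the high EV dose, against 2.91 FPKM in the control liver. The FPKM ratio of NASH to control was 5.98 and the log2 ratio was 1.68, rank 267 from the highest. Both EV libraries lay nearer to NASH than to control, with log2 ratios against NASH of -0.07 at the low dose and -0.03 at the high dose. Vcam1 exceeded Icam1 2.13-fold in the NASH liver but was at 0.705 of it in the control liver.

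The 250 bases before the Icam1 start site are shown because the gene is one of the strongest in the comparison and a window for it is in the RefSeq promoter table (GRCm38.p6, chr9:21015690-21015939, plus strand). Capitals mark the letters GGNNNTTCC, a short form of the NF-kB motif, on either strand.
Icam1: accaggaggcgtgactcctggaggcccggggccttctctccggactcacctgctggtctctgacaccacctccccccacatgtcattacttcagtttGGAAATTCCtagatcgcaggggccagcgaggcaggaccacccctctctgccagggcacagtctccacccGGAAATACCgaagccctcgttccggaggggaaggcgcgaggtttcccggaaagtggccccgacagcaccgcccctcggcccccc
The letters occurred at 2 places, beginning 153 and 84 bases before the start site. The first, GGAAATTCC, matches the pattern on both strands and is counted once. At least 1 match was present in 15.7% of the 32851 windows of this length, so a match is common and is given as a description. Windows were found for 5 of the 10 members (Icam1, Selp, Stab1, Stab2 and Clec4g).

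Selp stayed at low level throughout. It was at 0.912 FPKM in the NASH liver, 0.512 at the low EV dose and 0.590 at the high EV dose, against 0.182 FPKM in the control liver, and it did not reach the filter in either tissue. In colon it was at 0.275 FPKM in NASH, 0.155 at the low EV dose and 0.103 at the high EV dose, against 0.132 FPKM in control. The NASH library was the highest in each tissue, at a level where no ratio is given. The lncRNA gene Gm16548 overlaps Selp and was at 1.58 FPKM in the NASH liver and 5.92 FPKM in the control liver. Whether counting used the strand was not stated, so reads of the overlapping genes may not be fully separated.

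The junction genes Pecam1 and Cdh5 were alike in liver and differed by less than 2-fold relative to the median gene. Pecam1 was at 8.96 FPKM in NASH, 8.04 at the low EV dose and 8.49 at the high EV dose, against 4.25 FPKM in control. Cdh5, which encodes VE-cadherin, was at 9.65, 8.43 and 8.87 FPKM in those 3 libraries, against 4.73 FPKM in control. Their log2 ratios of NASH over control were 0.37 and 0.34, at percentiles 75.9 and 74.4 of all liver genes. The ratio of Pecam1 to Cdh5 lay between 0.899 and 0.957 in the 4 liver libraries. In bulk tissue, a different share of endothelial cells and a different amount of RNA per endothelial cell cannot be told apart.

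Among the surface protein genes of the sinusoid, Lyve1 was 2-fold higher in the NASH liver relative to the median gene. Clec4g, Stab2 and Stab1 were not 2-fold apart. Clec4g was at 34.5 FPKM in the NASH liver, 33.2 at the low EV dose and 40.8 at the high EV dose, against 28.8 FPKM in the control liver. Its log2 ratio of NASH over control was -0.30 relative to the median gene and 0.25 as deposited, so its direction depended on the centring. Stab2 was at 20.7 FPKM in NASH, 17.6 at the low EV dose and 21.6 at the high EV dose, against 13.7 FPKM in control, with a log2 ratio of 0.01. Both were thus near the median gene of the liver comparison. Stab1, which is also made by macrophages, was at 17.4 FPKM in NASH, 12.01 at the low EV dose and 13.8 at the high EV dose, against 7.04 FPKM in control (log2 0.64). The protein-coding gene Nt5dc2 overlaps an end of Stab1 (chr14:31139017-31168651), only over chr14:31139017-31139124. Nt5dc2 was at 6.50 FPKM in NASH, 5.16 at the low EV dose and 5.47 at the high EV dose, against 1.19 FPKM in control. Reads of the pair in that stretch may not be fully separated. Lyve1, a hyaluronan receptor also found on lymphatic endothelium and some macrophages, was at 10.8, 10.6 and 10.4 FPKM in the 3 NASH-model libraries, against 2.89 FPKM in control (log2 1.05). For Lyve1 the control library stood alone below the other 3, which were close to each other.

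The upstream windows of Stab2 (chr10:87007943-87008192, minus strand) and Clec4g (chr8:3720652-3720901, minus strand) are shown as the liver-restricted members beside Icam1, from the same table and build, each read 5′ to 3′ on the gene's strand. Capitals mark AGGAAG, a core of the motif of ETS factors such as ERG, on either strand.
Stab2: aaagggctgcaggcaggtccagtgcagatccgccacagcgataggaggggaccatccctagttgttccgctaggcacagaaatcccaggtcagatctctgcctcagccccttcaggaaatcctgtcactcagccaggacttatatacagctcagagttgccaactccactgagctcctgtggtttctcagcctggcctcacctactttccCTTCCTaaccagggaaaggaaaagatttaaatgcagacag
Clec4g: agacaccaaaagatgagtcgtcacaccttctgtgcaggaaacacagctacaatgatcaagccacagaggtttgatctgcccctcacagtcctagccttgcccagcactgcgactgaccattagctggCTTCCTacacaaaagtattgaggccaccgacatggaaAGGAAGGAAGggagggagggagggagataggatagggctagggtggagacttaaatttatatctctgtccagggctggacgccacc
The letters AGGAAG were present once in Stab2 and 3 times in Clec4g, where 2 of the matches overlap, and were absent from the Icam1 window. They occurred in 29.5% of all windows. The windows end at the start sites of the promoter table, while the annotated genes reach chr10:87008038 (Stab2) and chr8:3720695 (Clec4g). The part of these 2 windows nearest the start site thus lies inside the annotated gene, and the Stab2 match is in that part. The letters GGNNNTTCC were not in the Stab2 and Clec4g windows.

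Vwf stayed near 1 FPKM in liver. It was at 1.92 FPKM in NASH, 1.12 at the low EV dose and 0.870 at the high EV dose, against 0.603 FPKM in control. The log2 ratio of NASH over control was 0.31, and the ratios against NASH were -0.32 at the low dose and -0.51 at the high dose, the lowest of the 9 kept genes at the high dose. Both EV libraries thus lay between NASH and control for Vwf. At these low levels the pseudocount made the ratio smaller. With a pseudocount of 0.1 FPKM it was -0.89 at the high dose, still less than 2-fold relative to the median gene. The plain FPKM ratio to NASH, with neither pseudocount nor centring, was 0.454 at the high dose, which is more than 2-fold lower. At the low dose the plain ratio was 0.583. Platelets also carry Vwf, Selp and Pecam1. Of 9 platelet and megakaryocyte markers 3 were kept in liver, and the list of 9 summed to 8.75 FPKM in NASH, 8.07 at the low EV dose and 7.31 at the high EV dose, against 2.53 FPKM in control. Pf4, a chemokine gene of platelets, was the only one 2-fold higher (log2 1.04 for NASH over control). It was at 4.35 FPKM in NASH, 5.09 at the low EV dose and 5.02 at the high EV dose, against 0.776 FPKM in control. Itgb3 was at 2.203 FPKM in NASH and 0.780 FPKM in control (log2 0.29). Itga2b was at 1.28 FPKM in NASH and 0.455 FPKM in control (log2 0.09). The platelet receptor genes Gp1ba, Gp1bb, Gp9 and Gp6 were at 0.198 FPKM or less in each liver library. The part of platelets in the levels of Vwf, Selp and Pecam1 was not tested.

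Counted over the kept genes, 3 of 9 were at least 2-fold higher in the NASH liver than in the control liver (Vcam1, Icam1 and Lyve1) and 0 were lower, where 7.21% of 12866 liver genes were higher and 7.66% lower. The median of the 9 was 0.37, against 0 for all genes by construction, whose quartiles lay at -0.36 and 0.35. As deposited, without centring, Stab1 joined these at 1.19, and with libraries scaled to the same protein-coding sum Pecam1 and Cdh5 did too, for a count of 6, where 28.7% of liver genes were higher and 2.45% lower. Those scalings also moved all genes: 48.5% of the genes 2-fold apart were higher in NASH relative to the median gene, 86.4% as deposited, 50.1% after median-of-ratios scaling and 92.1% with equal sums.

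**Figure D2:**
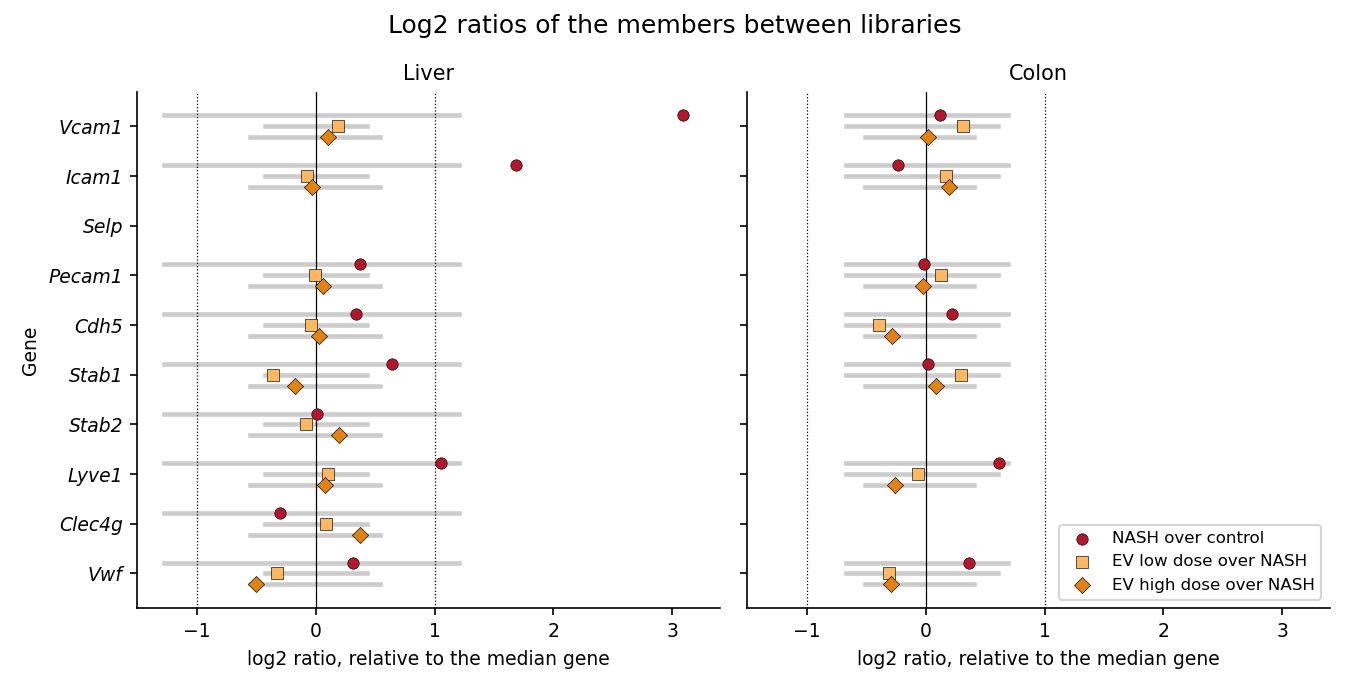
Log2 ratio of each kept gene in liver (left) and colon (right), relative to the median gene, for NASH over control (circles), low EV dose over NASH (squares) and high EV dose over NASH (diamonds). Grey bars run from the 5th to the 95th percentile of all genes kept in the tissue and dotted lines mark 2-fold. Vcam1 (3.09) and Icam1 (1.68) lie outside the grey bar in liver, and all EV ratios lie inside the dotted lines.

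Division by Pecam1 and Cdh5 in the same library removed library scaling. Vcam1 was at 3.99 times the geometric mean of Pecam1 and Cdh5 in the NASH liver, 4.68 at the low EV dose and 4.18 at the high EV dose, against 0.458 in the control liver, an 8.70-fold difference between NASH and control. Icam1 was at 1.87, 1.81 and 1.77 in the NASH-model libraries, against 0.650 in control, a 2.88-fold difference. For both genes the control library lay below the other 3.

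Clec4g ran the other way on this scale. It was at 3.71 in the NASH liver, 4.04 at the low EV dose and 4.70 at the high EV dose, against 6.42 in the control liver, a NASH to control ratio of 0.577. Stab2 was at 2.22, 2.14 and 2.49, against 3.05 in control, a ratio of 0.729. Neither reached 2-fold. On this scale the EV high dose library lay between NASH and control for both. As plain FPKM it was the highest liver library for both, at 40.8 for Clec4g and 21.6 for Stab2, so this order depended on the divisor. The divisor itself was at 9.30 FPKM in NASH and 4.48 FPKM in control. The geometric mean of 18 other pan-endothelial genes was at 3.25 and 2.09 FPKM in the same libraries. That mean differed less between NASH and control than the divisor did. The sizes of the Clec4g and Stab2 ratios thus also depended on the divisor. As plain FPKM, the NASH to control ratio was 1.20 for Clec4g and 1.51 for Stab2.

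Lyve1 stood at a ratio of 1.80, Stab1 at 1.19 and Vwf at 1.53 between NASH and control on the same scale. Of the 7 members kept in liver besides Pecam1 and Cdh5, 2 (Vcam1 and Icam1) were 2-fold higher and 0 lower, where 11.7% of liver genes were higher and 18.4% lower. With the geometric mean of 18 other pan-endothelial genes as divisor 4 were higher (Vcam1, Icam1, Lyve1 and Vwf) and 0 lower, where 16.8% of liver genes were higher and 9.9% lower. Set directly against each other, Vcam1 was at 1.08 times Clec4g in the NASH liver, 1.16 at the low EV dose and 0.889 at the high EV dose, against 0.0714 in the control liver.

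**Figure D3:**
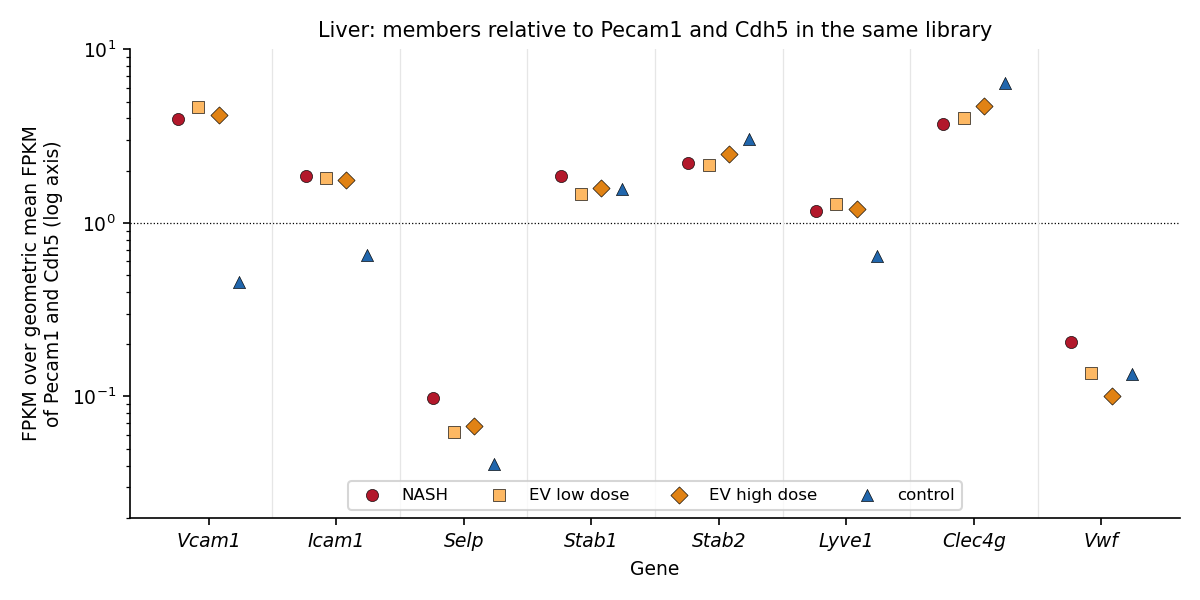
FPKM of each gene divided by the geometric mean FPKM of Pecam1 and Cdh5 in the same liver library (log axis), with NASH, EV low dose, EV high dose and control from left to right. Vcam1 and Icam1 have the control library lowest (0.458 and 0.650), and Clec4g and Stab2 have it highest (6.42 and 3.05).

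Related gene lists were counted in the same way. Of all 12866 liver genes, 7.21% were 2-fold higher and 7.66% lower in NASH than in control. These shares apply to each list count of NASH over control in liver given below. For lists of this size, a count of 0 or 1 is near those shares. Of 18 further pan-endothelial genes 17 were kept, and 0 were 2-fold apart between the NASH and control livers, with a median log2 ratio of -0.12. Kdr, the main VEGF receptor, was at 9.96 FPKM in NASH and 9.40 FPKM in control. Of 19 further sinusoidal genes 18 were kept, and 1 was higher and 0 lower (median -0.01). The higher one was Clec1b, which Kupffer cells of mice also make, at 25.3 FPKM in NASH and 5.91 FPKM in control (log2 1.38). Thbd, the anticoagulant thrombin receptor thrombomodulin, was next at 3.62 FPKM in NASH and 0.615 FPKM in control (log2 0.96).

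Genes of continuous, venous and capillary endothelium were kept in 10 of 16 cases, with 2 higher and 0 lower in NASH (median 0.28). Plvap, the diaphragm protein of fenestrae and caveolae, was at 20.9 FPKM in the NASH liver, 15.3 at the low EV dose and 11.4 at the high EV dose, against 5.64 FPKM in the control liver (log2 1.17 for NASH over control). Ly6a was at 17.0 FPKM in NASH and 4.73 FPKM in control (log2 1.10). Plvap thus stood lower in the EV libraries than in NASH, by less than 2-fold relative to the median gene. Endothelial transcription factors had 0 of 11 kept genes 2-fold apart (median -0.05), with Maf at 0.80.

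Adhesion genes outside the 10 were kept in 9 of 13 cases, with 2 higher and 0 lower in NASH (median 0.29). Cd44, a hyaluronan receptor of leukocytes and other cells, was at 12.4 FPKM in the NASH liver, 11.01 at the low EV dose and 10.6 at the high EV dose, against 1.30 FPKM in the control liver (log2 1.997). Alcam was at 32.4 FPKM in NASH and 9.25 FPKM in control (log2 1.15). Sele, the gene of E-selectin, was at 0.504 FPKM in the NASH liver and 0.0559 FPKM in the control liver and was not kept.

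Of 11 genes for the leukocyte ligands of these molecules 10 were kept in liver, and 6 were higher in NASH and 0 lower (median 1.04). Itgb2, the chain shared by LFA-1 and Mac-1, was at 19.1 FPKM in the NASH liver, 15.8 at the low EV dose and 15.9 at the high EV dose, against 1.42 FPKM in the control liver (log2 2.50). Itgal and Itgam, its partners in binding ICAM-1, stood at 1.33 and 1.09. Itga4, whose product binds VCAM-1, was at 3.23 FPKM in NASH, 2.90 at the low EV dose and 2.79 at the high EV dose, against 0.381 FPKM in control (log2 1.06).

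Of 16 genes of the NF-kB pathway and its inducers 15 were kept, with 3 higher and 0 lower in the NASH liver (median 0.52). They were Tnfaip3 (log2 1.65), the inhibitor A20 that NF-kB itself induces, Nfkb2 (1.35) and the interleukin-1 receptor Il1r1 (1.17). Il1b was at 3.79 FPKM in NASH and 3.11 FPKM in control, and Tnf was at 0.805 FPKM in NASH and 0.0558 FPKM in control and was not kept.

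**Figure D4:**
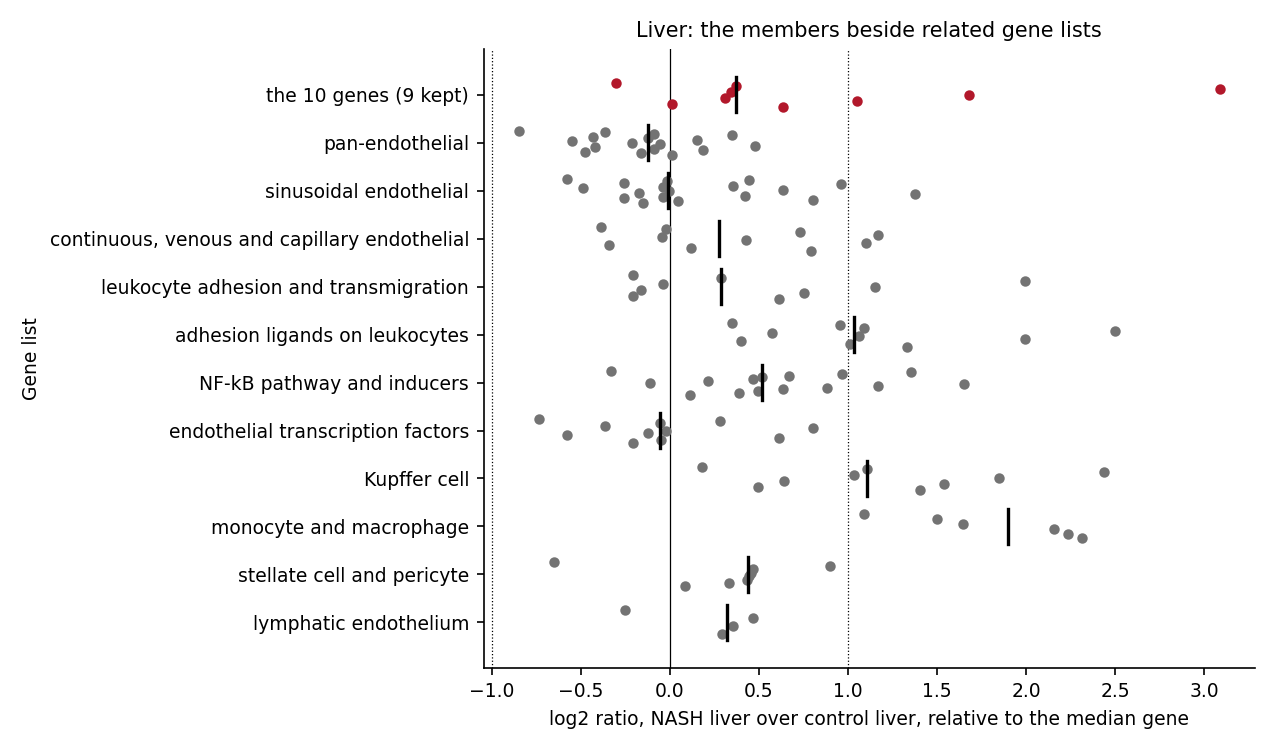
Log2 ratio of NASH liver over control liver, relative to the median gene, for the 9 kept members (red) and for genes of related lists (grey), 1 point per gene, with black bars at list medians. Dotted lines mark 2-fold. The pan-endothelial list lies around -0.12, and the leukocyte ligand (1.04), Kupffer cell (1.11) and macrophage (1.90) lists lie higher.

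Markers of macrophages, which can also make Vcam1, Icam1, Lyve1 and Stab1, were lowest as a sum in the control liver. Of 9 Kupffer cell markers 6 were 2-fold higher in NASH and 0 lower, and the 9 summed to 599 FPKM in NASH, 617 at the low EV dose and 626 at the high EV dose, against 129 FPKM in control. Of 6 monocyte and macrophage markers 6 were higher, with sums of 342, 297 and 372 FPKM, against 49.2 FPKM in control. Their part in the levels of the 4 genes was not tested. Ratios within a library give the sizes side by side. Vcam1 over Clec4f, a gene specific to Kupffer cells in mouse liver, was 0.362 in the NASH liver and 0.0615 in the control liver, a 5.88-fold difference. Vcam1 over Ptprc, the pan-leukocyte gene CD45, was 2.46 in NASH and 0.983 in control. Icam1 over Ptprc was 1.15 in NASH and 1.40 in control, Lyve1 over Clec4f was 0.106 in NASH and 0.0866 in control, and Stab1 over Clec4f was 0.169 in NASH and 0.211 in control. The NASH value of these 3 ratios was 0.827, 1.22 and 0.803 times the control value. Vcam1 over Csf1r, the receptor gene of macrophage growth factor, was 0.660 in NASH and 0.161 in control, a 4.10-fold difference, and Stab1 over Csf1r was 0.309 in NASH and 0.552 in control, a ratio of 0.560. Vcam1 thus differed more between the NASH and control livers than Clec4f, Ptprc and Csf1r did, but not more than each myeloid gene. The monocyte genes Ccr2, at 8.52 FPKM in NASH and 0.376 FPKM in control, and Ly6c2, at 4.28 FPKM in NASH and 0.151 FPKM in control, had wider FPKM ratios than Vcam1, although with the pseudocount their log2 ratios (2.24 and 1.65) were below its 3.09.

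Stellate cell and pericyte markers, which include cells that can make Vcam1, had 0 of 8 kept genes 2-fold apart (median 0.44), and the list summed to 104 FPKM in NASH, 97.4 at the low EV dose and 97.3 at the high EV dose, against 56.3 FPKM in control. Lymphatic markers had 0 of 4 kept genes 2-fold apart. The lymphatic gene Pdpn was at 0.168 FPKM or less in each liver library. Prox1, which hepatocytes also express, was at 14.2 FPKM in NASH and 11.3 FPKM in control. Smooth muscle markers were kept in 2 of 5 cases, and both were 2-fold higher in NASH. Myh11, Cnn1 and Actg2 were not kept, at 0.589, 0 and 0.161 FPKM in the NASH liver. Tagln was at 7.76 FPKM in the NASH liver and 0.549 FPKM in the control liver (log2 1.95), and Acta2 was at 4.16 FPKM in NASH and 0.354 FPKM in control (log2 1.38). Hepatocyte markers were 2-fold lower in NASH in 4 of 6 cases, with a median log2 ratio of -1.42. This count depended on the centring. As plain FPKM, Serpina1a and Ttr were still more than 2-fold lower. Apoa1, at 3322 FPKM in NASH and 5546 FPKM in control, and Fgb, at 1018 and 2019 FPKM, were not.

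Relative to the median gene, no member was 2-fold apart from NASH in liver at either EV dose. At the low dose 0 of 9 kept genes were higher and 0 lower, where 0.443% of liver genes were higher and 0.225% lower. Log2 ratios ran from -0.36 (Stab1) to 0.19 (Vcam1) with a median of -0.04. At the high dose the counts were again 0 and 0, where 0.816% were higher and 0.373% lower, and ratios ran from -0.51 (Vwf) to 0.37 (Clec4g) with a median of 0.06. Divided by Pecam1 and Cdh5, with no pseudocount, 1 of 7 kept genes was 2-fold lower at the high dose, Vwf at 0.486 of NASH, and 0 were higher, where 1.66% of liver genes were higher and 2.81% lower. On that scale 0 were higher and 0 lower at the low dose, where 1.41% were higher and 1.43% lower. The comparisons share the NASH library, so they are not independent of each other. Relative to the median gene, EV high dose against EV low dose gave 0 and 0 as well, where 0.303% were higher and 0.163% lower, with the largest difference for Clec4g at 0.29.

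In colon no kept gene was 2-fold apart in any of the comparisons made, relative to the median gene. Vcam1 was at 3.81 FPKM in NASH, 4.73 at the low EV dose and 3.94 at the high EV dose, against 3.25 FPKM in control. Icam1 was at 3.48 FPKM in NASH, 3.84 at the low EV dose and 4.20 at the high EV dose, against 4.05 FPKM in control. The control library was lowest for Vcam1 and the NASH library lowest for Icam1, both by small steps. Of 7 kept genes 0 were higher and 0 lower in NASH than in control, where 2.12% of 15245 colon genes were higher and 2.26% lower, and the median of the 7 was 0.12.

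Lyve1 had the largest colon ratio of NASH over control, 0.62 on the log2 scale. This was at percentile 93.6 of colon genes, and its liver ratio was at percentile 93.4 of liver genes. Lyve1 thus stood about as far out in colon as in liver. In colon it was at 9.45 FPKM in NASH, 8.59 at the low EV dose and 7.83 at the high EV dose, against 5.53 FPKM in control. Among lymphatic genes, Mmrn1 was at 9.68, 8.96 and 8.35 FPKM in the NASH-model colons, against 6.33 FPKM in control, and Ccl21a was at 34.6, 37.3 and 35.5 FPKM, against 34.6 FPKM in control. The NASH colon was highest for Lyve1 and Mmrn1 but not for Ccl21a. Their part in the Lyve1 level was not tested.

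Vwf was at 3.64 FPKM in the NASH colon, 2.61 at the low EV dose and 2.83 at the high EV dose, against 2.45 FPKM in the control colon. Cdh5 was at 3.10, 1.99 and 2.39 FPKM, against 2.36 FPKM in control. Both were highest in the NASH colon. Pecam1 stayed between 9.76 and 10.7 FPKM and Stab1 between 5.94 and 7.64 FPKM. Against NASH, 0 of 7 kept genes were higher and 0 lower at either dose. The shares of colon genes were 1.06% higher and 1.61% lower at the low dose, and 1.08% higher and 1.48% lower at the high dose. EV high dose against EV low dose also gave 0 and 0, where 0.728% were higher and 0.794% lower. Divided by Pecam1 and Cdh5, 0 of the 5 other kept genes were 2-fold higher or lower in NASH than in control, where 4.31% of colon genes were higher and 5.35% lower.

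Likeness to other genes was read as the Euclidean distance between profiles of log2(FPKM + 1) over the 8 libraries, each less its own mean, among 11806 genes that reached 1 FPKM in both tissues. The nearest to Vcam1 were Trem2 (distance 0.56), Lilr4b (0.69) and Acot2 (0.72). Trem2, a receptor of lipid-associated macrophages, was at 18.5 FPKM in the NASH liver, 16.3 at the low EV dose and 17.3 at the high EV dose, against 0.0991 FPKM in the control liver. That control level lay below the pseudocount of 1 FPKM, which made the Trem2 profile flatter than plain FPKM would. Acot2 was at 29.5 FPKM in the NASH liver, 24.9 at the low EV dose and 19.5 at the high EV dose, against 1.86 FPKM in the control liver. The nearest to Icam1 were Spi1 (0.29), Tmem176b (0.33) and Nckap1l (0.34), of which Spi1 encodes the myeloid factor PU.1. The nearest to Cdh5 was Flt4 (0.24), a VEGF receptor of lymphatic and sinusoidal endothelium, followed by Atxn10 (0.24) and Qk (0.26). The libraries share depth and composition, so these distances describe the 8 libraries.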

How the data were processed

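Gene levels were deposited by the authors as FPKM in 1 table of 8 libraries, and used as deposited. Per the submitters' processing notes, Trimmomatic 0.38, HISAT2, StringTie and mm10 were named without role or order. Per the labels, libraries were made from total RNA with a stranded kit. Depth and pooling are not stated in the sources used here.

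Of 45777 identifiers 45679 were matched to symbols of GRCm38.p6 and 98 were not. Log2 ratios used a pseudocount of 1 FPKM and genes at 1 FPKM or more in at least 1 library of a tissue (12866 in liver, 15245 in colon), less the median gene. With 1 library per group no test was run. The members, gene lists and thresholds were chosen with earlier results of these data known. All 10 members are named. From other lists the text names up to 4 genes per direction at 2-fold, or, where fewer passed, up to 2 with the largest ratios, besides cell type markers and the 3 nearest profiles. Kdr, Itga4, Madcam1, Il1b, Tnf, Sele, Ccl21a, Mmrn1 and Prox1 were chosen after their values were seen.

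Alternatives were pseudocounts of 0.1 and 5 FPKM, no centring, median-of-ratios and equal protein-coding sums, no filter, a filter at 5 FPKM and protein-coding genes only. Scaling over 8 libraries and the pan-endothelial divisor were added after seeing the data. Code was tested on simulated libraries. Python 3.11.15, numpy 2.4.6 and pandas 2.3.3 were used.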

Additional observations from a re-analysis of the deposited data

Results flagged for a closer look

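Icam1 was the only member whose log2 ratio of NASH over control had opposite signs in the tissues and differed by 2-fold or more between them, at 1.68 in liver and -0.23 in colon. The difference was not tested, since each tissue held 1 library per group. The colon value of Icam1 lay within the quartiles of colon genes, -0.24 and 0.24. Vcam1 differed more between the tissues, at 3.09 in liver and 0.12 in colon, but with the same sign.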

How the results depend on the processing

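Over 8 alternative settings, the counts of members 2-fold apart between libraries moved by more than 1.5 times in 1 case, the count higher in the NASH liver, which was 6 with equal protein-coding sums against 3 relative to the median gene. Among single genes, Lyve1 in the NASH liver dropped below 2-fold with a pseudocount of 5 FPKM (0.72). Stab1 passed it as deposited and with no filter, where the median gene is 0 (1.19). Without overlap between tissues, 6 members lay above colon and 0 above liver after median-of-ratios scaling, against 3 and 2 as deposited. With the pan-endothelial divisor 4 members were 2-fold higher in the NASH liver, against 2 with Pecam1 and Cdh5. No member's ratio reversed at 2-fold. For EV low dose over NASH in liver, 66.3% of all genes 2-fold apart were higher relative to the median gene and 44.9% as deposited, and for EV high dose 68.6% and 43.3%. No paired analysis was possible because each group held 1 library per tissue, and leaving out a library was not possible for the same reason. The unknown depth limits Selp and Vwf in liver, and Stab2 and Clec4g in colon.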

Other observations

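In colon the transcription factor gene Gata2, a member of the endothelial factor list that mast cells and other blood cells also express, was at 2.88 FPKM in NASH, 0.246 at the low EV dose and 0.271 at the high EV dose, against 0.264 FPKM in control. Fabp4, shared by capillary endothelium and fat cells, was at 154.6 FPKM in the NASH colon, 75.7 at the low EV dose and 46.3 at the high EV dose, against 50.9 FPKM in the control colon. Gata2 was 2-fold lower against NASH at both doses, which share the NASH library, and Fabp4 at the high dose.

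Madcam1, the gut addressin for leukocytes, was at 1.38 FPKM in the NASH colon, 1.94 at the low EV dose and 2.02 at the high EV dose, against 1.64 FPKM in the control colon, and was listed at 0 in the 4 liver libraries.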
